A study of Mus musculus with 6 samples.

Results

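The nuclear-encoded genes of oxidative phosphorylation were taken by name from the count table: protein-coding genes whose symbols begin with Nduf, Uqcr, Cox4 to Cox8 or Atp5, together with Sdha, Sdhb, Sdhc, Sdhd, Cyc1 and Cycs. This gave 98 of 55487 genes, of which 94 passed the filter on low counts and were tested among 15978 genes. The naming rule uses no measured value. By name, 37 of the 98 belong to complex I, 8 are complex I assembly factors (Ndufaf), 4 belong to complex II, 9 to complex III, 21 to complex IV and 18 to complex V, and 1 is cytochrome c. Ndufa4 and Ndufa4l2 were counted with complex IV, where the Ndufa4 protein is known to sit.

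The RNA came from mouse lung tumours of the KP model, a genetically engineered model of lung adenocarcinoma. All tumours were KP. The 3 sgNeo libraries came from tumours given a control guide and labelled Lkb1 wild type, and the 3 sgLkb1 libraries from tumours given a guide against Lkb1 (gene symbol Stk11), labelled Lkb1 mutant. Cells positive for GFP and negative for CD45 were sorted 11 weeks after initiation in both groups, and the labels give neither the age of the mice nor whether the replicates came from separate animals. The p-values therefore rest on variation among these samples, part of which may be technical. The comparison asks how transcript levels in KP tumour cells depend on the Lkb1 guide.

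Oxidative phosphorylation passes electrons from NADH (complex I) and succinate (complex II) through complex III and cytochrome c to oxygen (complex IV), and the proton gradient built on the way drives ATP synthesis by complex V. Most subunits are encoded in the nucleus and imported, while a small core of complexes I, III, IV and V is encoded by mitochondrial DNA. LKB1 is the upstream kinase of AMPK, a sensor of low cellular energy that is known to promote mitochondrial biogenesis and turnover. Several subunits of complex IV exist as a widely expressed form and a second form known from heart and skeletal muscle or from testis.

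Total counts ranged from 26007503 to 28986526 in sgNeo and from 29613678 to 41729299 in sgLkb1. The targeted gene, Stk11, was at 33.4 to 82.7 CPM (counts scaled by library size) in sgNeo and 23.5 to 25.6 CPM in sgLkb1, a log2 fold change (log2FC, sgLkb1 minus sgNeo) of -1.31 with an SE of 0.30 (edgeR adjusted p = 0.0230). The call held in 1 of 6 fits with a library left out (without sgNeo replicate 2), and transcript remained in all sgLkb1 libraries. The alveolar and epithelial markers Sftpc, Nkx2-1 and Epcam were present in every library. Sftpc was at 69500 to 82900 CPM in sgNeo against 5930 to 11200 CPM in sgLkb1. Nkx2-1 was at 259 to 295 CPM in sgNeo against 84.5 to 168 CPM in sgLkb1. Epcam went the other way, at 436 to 555 CPM in sgNeo against 934 to 1340 CPM in sgLkb1. Ptprc, which encodes CD45, lay between 4.35 and 10.4 CPM. In the same libraries 4 of 10 fibroblast and mural markers rose, with a summed level of 53.9 to 131 CPM in sgNeo against 205 to 1433 CPM in sgLkb1. Of 8 endothelial markers 3 rose (39 to 60.2 and 80.2 to 154 CPM). Of all tested genes, 7.05% rose and 8.6% fell at an edgeR adjusted p under 0.05. Without sgNeo replicate 2 or 3 the fibroblast count was 0, and without sgLkb1 replicate 3 it was 1. Among leukocyte markers 2 of 10 tested fell (Cd79a and Lyz1), with a summed level of 510 to 865 CPM in sgNeo against 57.6 to 123 CPM in sgLkb1. Lyz1 had the highest level of that list, a mean of 355 CPM over the 6 libraries. The list did not fall as a whole: its median log2FC was 0.083, and 6 of the 10 were positive. At an unadjusted p under 0.05, 3 leukocyte markers were higher and 3 lower. The ciliated and erythroid lists had 0 calls among 7 and 4 tested genes with edgeR and, at an unadjusted p under 0.05, 2 and 0. The median log2FC was 1.451 in the ciliated list, with 7 of 7 positive, and -0.801 in the erythroid list, with 0 of 4 positive. The part of all these cell types in the differences described here was not tested. In bulk RNA fewer cells of a type and less RNA per cell cannot be told apart. Within sgLkb1, replicates 1 and 3 stood apart in opposite directions along GC content: over 9432 genes the deviation from the group mean had a Spearman rho with GC content of -0.64 in replicate 1 and 0.67 in replicate 3. Replicate 3 also held the highest fibroblast sum (1433 CPM, beside 205 and 295 CPM). Members low in GC content were high in replicate 1. The members' median and the values of Cox5a, Ndufs4, Cycs and Coq10b are given with and without that library.

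Few of the oxidative phosphorylation genes passed the test between the genotypes. In sgLkb1, 2 of 94 tested members rose (Cox5a and Ndufs4) and 2 fell (Cox6a2 and Cox6b2), which is 4.26% of the members, against 15.7% of all tested genes past the same threshold, an edgeR adjusted p under 0.05 over all tested genes (7.05% higher and 8.6% lower). At an unadjusted p under 0.05 there were 10 of 94 members higher and 5 lower, beside 2308 higher and 2538 lower of all 15978 tested genes. The median log2FC of the members was 0.186, beside 0.018 for all tested genes, and 63 members (67%) had a positive value, beside 51.2% of all genes. The values were also closer together: 76 members (80.9%) lay within 0.5 of 0 on the log2 scale, beside 56.5% of all genes. The 2 sets were not matched for level. A mean log2 CPM above 3 was reached by 86 members, beside 9432 of all genes and 282 more without a GC value. The part of level in the narrower spread was not tested.

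Summed over the 94 tested members, expression came to 10680, 9958 and 10490 CPM in sgNeo replicates 1, 2 and 3 against 13700, 11500 and 10700 CPM in the sgLkb1 replicates. All sgLkb1 sums were above all sgNeo sums, but sgLkb1 replicate 3 was only slightly above the highest sgNeo library. By the median over members, each taken relative to its own sgNeo mean on the log2 scale, the sgLkb1 libraries stood at 0.165, 0.131 and 0.030 and the sgNeo libraries at 0.011, -0.049 and 0.052, so by this measure the groups overlapped. Without sgLkb1 replicate 1 the median log2FC of the members was 0.093. In 15 members (16%) all sgLkb1 libraries lay above all sgNeo libraries, and in 11 (11.7%) all lay below, beside 16.3% and 20.3% of all tested genes.

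**Figure D1:**
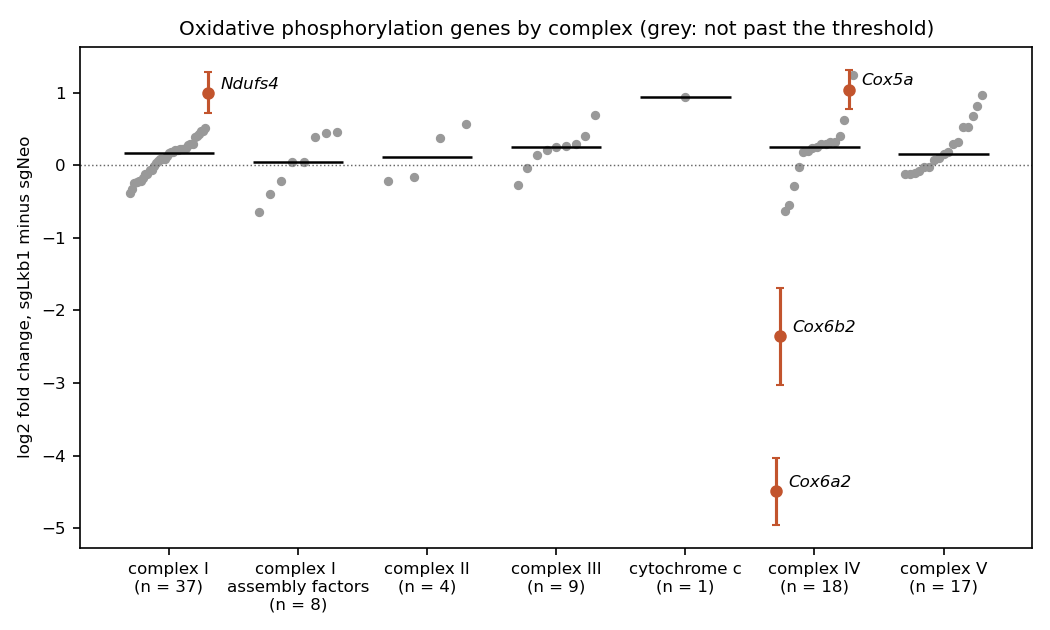
Log2 fold change (sgLkb1 minus sgNeo) of the 94 tested members, 1 point per gene, grouped by complex along the horizontal axis. Black lines are group medians, and orange points are the 4 genes with an edgeR adjusted p under 0.05, with bars of 1 SE. Cox6a2 and Cox6b2 lie at -4.49 and -2.36, and all other members lie between -0.643 and 1.25.

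In complex IV, cytochrome c oxidase, 1 of 18 tested members rose and 2 fell, and the median log2FC was 0.244. That share of calls was close to the 15.7% of all tested genes. The greatest difference of any member was in Cox6a2, which encodes the heart and skeletal muscle form of subunit 6A, a small subunit at the edge of the complex. Its counterpart Cox6a1 encodes the widely expressed form. Because the 2 genes code for similar proteins, the longest stretch of coding sequence aligned without a gap is printed here, to show how far reads of one can be told from reads of the other. Both lines run 5′ to 3′ in the coding sense (GRCm38, GENCODE vM21 transcripts), over coding bases 160 to 291 of Cox6a2, within chr7:128205732-128205950 on the minus strand, and coding bases 205 to 336 of Cox6a1, within chr5:115345846-115348615 on the minus strand, introns removed. Capitals mark the 37 of 132 bases that differ.
Cox6a2: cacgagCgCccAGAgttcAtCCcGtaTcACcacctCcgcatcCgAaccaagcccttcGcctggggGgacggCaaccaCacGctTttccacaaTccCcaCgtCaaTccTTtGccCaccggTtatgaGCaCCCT
Cox6a1: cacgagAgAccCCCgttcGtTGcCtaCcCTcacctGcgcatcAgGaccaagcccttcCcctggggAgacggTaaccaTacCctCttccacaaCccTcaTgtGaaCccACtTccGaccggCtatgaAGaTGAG
Over the whole coding sequences the genes were identical at 62.5% of 285 aligned bases, with no identical run longer than 12 bases. All 6 deposited counts of Cox6a2 were whole numbers, which shows no sign of reads divided with another gene.

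Cox6a2 was at 59.8, 51.0 and 55.1 CPM in sgNeo replicates 1, 2 and 3 against 2.42, 0.945 and 4.02 CPM in the sgLkb1 replicates, from 1492, 1260 and 1383 counts against 99, 36 and 140. Every sgLkb1 library lay far below every sgNeo library. The means were 55.3 ± 4.42 and 2.46 ± 1.54 CPM (SD, n = 3), 22.5-fold lower in sgLkb1, with a log2FC of -4.49 (SE 0.46, edgeR adjusted p = 0.000959). The call held in each of the 6 fits without 1 library (log2FC -5.04 to -4.07) and in all 10 other settings tried (-4.73 to -4.38). Cox6a2 is located on chromosome 7 at 128205435 to 128206387, on the minus strand (GRCm38), and 1 of its exons overlaps an exon of Itgad on the other strand. Itgad, an integrin of macrophages, had 3, 1 and 0 counts in sgNeo and 0 in every sgLkb1 library.

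Cox6a1 did not pass. It stood at 152, 147 and 192 CPM in sgNeo against 184, 188 and 209 CPM in sgLkb1, groups that overlapped, with a log2FC of 0.24 (SE 0.16, edgeR adjusted p = 0.356). Per kilobase of exon, Cox6a2 made up 29.0%, 26.4% and 22.8% of the Cox6a pair in the sgNeo libraries and 1.34%, 0.517% and 1.95% in the sgLkb1 libraries. The shares averaged 26.1% ± 3.07 and 1.27% ± 0.719 (SD, n = 3) and did not overlap.

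Since Cox6a2 is known from striated muscle, a list of 12 striated muscle genes was read beside it. Of these, 6 were tested and 1 fell, beside 8.6% of all tested genes. It was Myh7, the slow and cardiac myosin heavy chain. Myh7 was at 371, 528 and 365 CPM in sgNeo against 56.9, 48.9 and 72.7 CPM in sgLkb1 (log2FC -2.82, SE 0.23, edgeR adjusted p = 0.000575). The other 11 genes together reached only 7.58, 6.35 and 4.77 CPM in sgNeo against 4.03, 24.7 and 12.5 CPM in sgLkb1. Nppa, the atrial natriuretic peptide, had 0 counts in every library, and Ckm, the muscle creatine kinase, had 7, 3 and 0 counts in sgNeo. The 6 tested genes of the muscle list, Myh7 among them, had a median log2FC of -0.825, and 2 of the 6 were positive. The part of muscle cells or of other Myh7-expressing cells in the difference was not tested.

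Cox6b2, the testis form of subunit 6B, also fell. It was at 3.65, 2.31 and 2.79 CPM in sgNeo against 0.734, 0.131 and 0.832 CPM in sgLkb1, from 91, 57 and 70 counts against 30, 5 and 29. The groups did not overlap (2.92 ± 0.680 and 0.566 ± 0.380 CPM, SD, n = 3), and the log2FC was -2.36 (SE 0.67, edgeR adjusted p = 0.0481). This call was lost in all 6 fits without 1 library (edgeR adjusted p from 0.0625 to 0.139, log2FC -2.74 to -1.86) and held in 7 of 10 other settings. Cox6b2 is located on chromosome 7 at 4751792 to 4753094, on the minus strand. Cox6b1, the widely expressed form, was at 140, 131 and 158 CPM in sgNeo against 166, 188 and 183 CPM in sgLkb1 (log2FC 0.33, SE 0.15, edgeR adjusted p = 0.181). All its sgLkb1 libraries were above all sgNeo libraries, but it did not pass. Cox6b2 made up 1.29% ± 0.30 of the Cox6b pair per kilobase in sgNeo and 0.205% ± 0.139 in sgLkb1 (SD, n = 3).

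The promoters of these isoform genes, as far as RefSeq's promoter table holds them (GRCm38.p6), are printed because they show which widely used respiratory-gene motifs precede the paired forms. Each line gives the 250 bases before the start on the gene's strand, at chr5:115348959-115349208 for Cox6a1, chr7:30626115-30626364 for Cox6b1 and chr7:4753095-4753344 for Cox6b2, all on the minus strand. Capitals mark matches on either strand to the NRF1 motif (NRF1 is a regulator of respiratory genes) or to CCGGAAG, the ETS core that NRF2 (GABP) binds.
Cox6a1: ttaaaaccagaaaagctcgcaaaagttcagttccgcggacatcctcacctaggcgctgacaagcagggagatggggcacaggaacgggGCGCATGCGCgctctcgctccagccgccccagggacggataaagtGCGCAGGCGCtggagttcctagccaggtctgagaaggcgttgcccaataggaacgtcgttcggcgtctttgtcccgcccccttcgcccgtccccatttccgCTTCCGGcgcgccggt
Cox6b1: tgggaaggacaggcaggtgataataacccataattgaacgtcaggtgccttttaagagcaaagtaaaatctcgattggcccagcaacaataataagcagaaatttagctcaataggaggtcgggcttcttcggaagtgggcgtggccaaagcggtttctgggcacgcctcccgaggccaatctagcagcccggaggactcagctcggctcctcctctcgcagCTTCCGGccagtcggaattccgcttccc
Cox6b2: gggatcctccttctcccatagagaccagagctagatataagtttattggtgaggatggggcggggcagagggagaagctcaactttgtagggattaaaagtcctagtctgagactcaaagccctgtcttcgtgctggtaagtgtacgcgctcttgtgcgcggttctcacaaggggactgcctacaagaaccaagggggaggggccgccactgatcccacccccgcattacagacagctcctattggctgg
The printed matches do not overlap each other, and Cox6b2 has no match in this window. Of 97 member symbols, 78 were in the table. It holds 300 bases per promoter (250 before and 50 after the start), and a gene was counted if any of its promoters matched. The NRF1 motif occurred in 19 of 78 members (24.4%), beside 5.2% of all 27025 gene symbols listed, and the ETS core in 24.4%, beside 9.9%. AAGATGGC, the YY1 motif, occurred in 14.1% and 3.2%, TGACGTCA, the CRE, in 6.4% and 2.0%, and TCAAGGTCA, the ERR motif, in 2.6% and 0.5%. Among the other called members the table gives Ndufs4 a YY1 match and Cox5a a match to none of these motifs. Cox6a2 has no entry there, so its promoter was not searched.

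**Figure D2:**
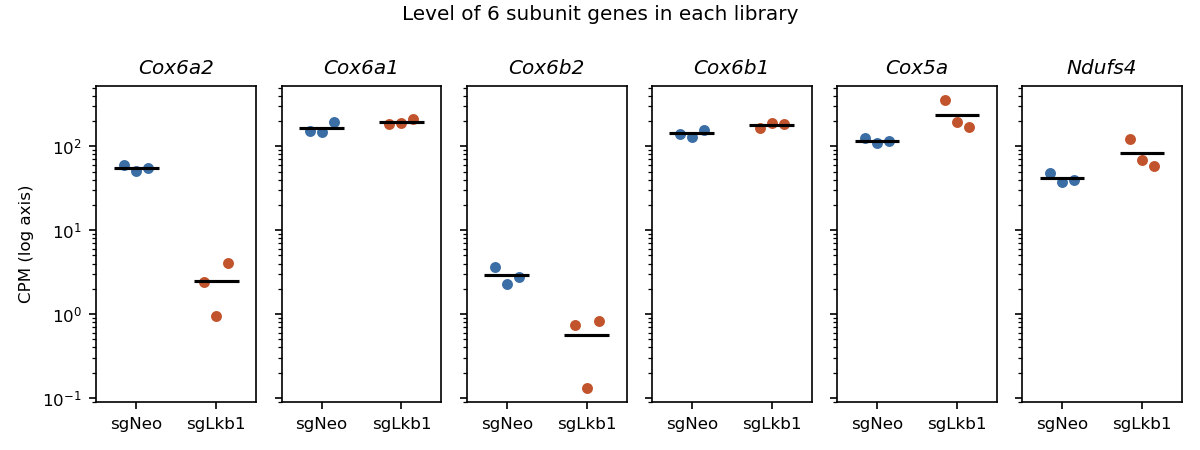
Level in CPM (log axis) of Cox6a2, Cox6a1, Cox6b2, Cox6b1, Cox5a and Ndufs4, 1 point per library, with sgNeo in blue, sgLkb1 in orange and black lines at the group means (n = 3). Cox6a2 lies at 51.0 to 59.8 CPM in sgNeo and at 0.945 to 4.02 CPM in sgLkb1, while for Cox5a and Ndufs4 the sgLkb1 points are spread upward by replicate 1, at 353 and 123 CPM.

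Cox5a, a structural subunit that binds the complex IV core on the matrix side, rose in sgLkb1. It was at 124, 108 and 116 CPM in sgNeo against 353, 194 and 171 CPM in sgLkb1, with sgLkb1 replicate 1 well above the other 2 of its group and no overlap between the groups. The means were 116 ± 7.73 and 239 ± 98.9 CPM (SD, n = 3), a 2.06-fold difference (log2FC 1.04, SE 0.27, edgeR adjusted p = 0.0366). Without sgLkb1 replicate 1 the log2FC was 0.66 and still passed (edgeR adjusted p = 0.0148). The call was lost on removal of any sgNeo library (edgeR adjusted p = 0.0993, 0.138 and 0.110 without sgNeo replicates 1, 2 and 3). Cox5a is located on chromosome 9 at 57521274 to 57532426, on the plus strand, and overlaps Gm26631 on the other strand, which was at 1.80 and 2.36 CPM on average in the 2 groups.

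The other members of complex IV did not pass. Cox4i1 (the common form of subunit 4, 210 ± 23.4 and 241 ± 28.1 CPM), Cox8a, Cox7a2, Cox7b, Cox7c, Cox6c, Cox5b and Ndufa4 had log2FC values from -0.03 for Cox8a to 0.63 for Cox7b. Among the tissue-restricted forms, Cox4i2, the hypoxia-linked form of subunit 4, was at 0.469 ± 0.127 and 0.301 ± 0.069 CPM (log2FC -0.64, SE 0.61, edgeR adjusted p = 0.532), and Cox7a1, the muscle form of subunit 7A, at 1.00 ± 0.077 and 0.825 ± 0.285 CPM (-0.28, SE 0.51, edgeR adjusted p = 0.755). The muscle form of subunit 7A thus differed by less than the error of its estimate. Cox5b-ps, annotated as protein coding, was at 1.42 ± 0.342 and 0.970 ± 0.232 CPM (log2FC -0.55, edgeR adjusted p = 0.489). Ndufa4l2, a hypoxia-induced relative of Ndufa4, had the highest log2FC among members, 1.25 (SE 0.90, edgeR adjusted p = 0.391), but lay at 0.923, 0.203 and 0.120 CPM in sgNeo against 0.563, 0.551 and 1.87 CPM in sgLkb1, and the groups overlapped. The 3 members of complex IV left untested were Cox7b2 (3 counts in 1 library), Cox8b (3 and 1 counts in 2 libraries) and Cox8c (1 count in 1 library), restricted forms of subunits 7B and 8.

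In complex I, which oxidises NADH, 1 of 37 members rose and 0 fell by edgeR, and the median log2FC was 0.172. The values were narrowly spread, with 35 of 37 within 0.5 of 0. Ndufs4, an accessory subunit needed for a stable NADH-binding arm and a gene known from Leigh syndrome, was at 47.5, 37.9 and 39.3 CPM in sgNeo against 123, 68.4 and 57.8 CPM in sgLkb1. The groups did not overlap, and sgLkb1 replicate 1 was again well above the other 2. The means were 41.5 ± 5.17 and 83.0 ± 34.9 CPM (SD, n = 3), a 2.00-fold difference (log2FC 1.00, SE 0.28, edgeR adjusted p = 0.0469). Without sgLkb1 replicate 1 the log2FC was 0.61 (edgeR adjusted p = 0.0318). The call did not hold on removal of sgNeo replicate 1, 2 or 3 (edgeR adjusted p = 0.0956, 0.164 and 0.140), without sgLkb1 replicate 2 (0.0554) and with limma-voom (0.0613). Ndufs4 is located on chromosome 13 at 114287795 to 114388258, on the minus strand.

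The 7 core subunits of complex I encoded in the nucleus, which carry the flavin and the iron-sulphur clusters, had a median log2FC of -0.005, and 0 passed by edgeR (1 lower at an unadjusted p under 0.05). Ndufv2 of the NADH-binding module had the highest value among them, 0.39 (SE 0.22, edgeR adjusted p = 0.277), at 123 ± 5.14 CPM in sgNeo against 161 ± 50.7 CPM in sgLkb1. Ndufs7, which holds the last iron-sulphur cluster before ubiquinone, had the lowest. It was at 136, 134 and 143 CPM in sgNeo against 92.5, 105 and 119 CPM in sgLkb1, and every sgLkb1 library was below every sgNeo library, but it did not pass (log2FC -0.39, SE 0.15, edgeR adjusted p = 0.123). Ndufs1, Ndufs3, Ndufs8 and Ndufv1 lay between -0.21 for Ndufs3 and 0.18 for Ndufs1. Ndufb11, an accessory subunit of the membrane arm, was at 69.7 ± 3.87 and 55.6 ± 8.58 CPM (log2FC -0.33, SE 0.16, edgeR adjusted p = 0.212), and Ndufb6 and Ndufab1 (the mitochondrial acyl carrier protein) stood at 0.52 and 0.47.

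The 8 complex I assembly factors held 0 calls by edgeR, DESeq2 or limma-voom, with 2 lower at an unadjusted p under 0.05. Of these, Ndufaf6 was at 8.66, 7.45 and 10.6 CPM in sgNeo against 4.92, 6.53 and 5.65 CPM in sgLkb1 (log2FC -0.64, SE 0.27, edgeR adjusted p = 0.145), and Ndufaf3 at 24.9 ± 1.97 and 19.0 ± 2.05 CPM (-0.39, SE 0.17, edgeR adjusted p = 0.157). Neither gene's groups overlapped. Ndufaf1 and Ndufaf2 had values of 0.44 and 0.46, so members of this group lay on both sides of 0 (median 0.046).

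The 4 genes of complex II, succinate dehydrogenase, which has no subunit encoded by mitochondrial DNA, were split in direction. Sdhb, the iron-sulphur subunit, was at 113, 106 and 107 CPM in sgNeo against 133, 151 and 139 CPM in sgLkb1, and Sdhd, a membrane anchor that binds ubiquinone, at 150, 139 and 153 CPM and 259, 214 and 183 CPM. For both, all sgLkb1 libraries lay above all sgNeo libraries. The flavoprotein gene Sdha was at 393, 399 and 384 CPM and 364, 364 and 327 CPM, and the other anchor, Sdhc, at 78.5, 80.6 and 84.7 CPM and 60.7, 74.3 and 73.9 CPM, and for both all sgLkb1 libraries lay below. Of all tested genes, 16.3% had every sgLkb1 library above and 20.3% had every one below. None of the 4 passed by edgeR (2 higher at an unadjusted p under 0.05), with log2FC values of 0.57 for Sdhd (SE 0.17, adjusted p = 0.0585), 0.38 for Sdhb (SE 0.14, 0.104), -0.22 for Sdhc (SE 0.14, 0.338) and -0.16 for Sdha (SE 0.15, 0.511). DESeq2 called 2, Sdhd and Sdhb, and limma-voom 0.

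Complex III, which passes electrons from ubiquinol to cytochrome c, held 0 calls among 9 genes by edgeR, DESeq2 or limma-voom (1 higher at an unadjusted p under 0.05, Uqcrc2), with a median log2FC of 0.248. In 4 of its 9 genes, Uqcrc2, Uqcrfs1, Uqcrh and Uqcrq, all sgLkb1 libraries lay above all sgNeo libraries, beside 16.3% of all tested genes. Uqcrfs1, the Rieske iron-sulphur protein, was at 103 ± 1.71 and 123 ± 8.91 CPM (log2FC 0.26, SE 0.14, edgeR adjusted p = 0.239), and Uqcrc2, a core protein, at 88.6 ± 1.48 and 117 ± 22.8 CPM (0.40, SE 0.17, edgeR adjusted p = 0.151). Cyc1, the cytochrome c1 haem subunit, had the lowest value of the complex, -0.28 (SE 0.17, edgeR adjusted p = 0.312). Uqcrb, which lies near the ubiquinone site, had the highest log2FC of the complex, 0.69 (SE 0.39, edgeR adjusted p = 0.278). Its levels were 373, 263 and 198 CPM in sgNeo against 736, 341 and 270 CPM in sgLkb1, which overlapped. With 1 library left out the log2FC of Uqcrb ranged from 0.143 to 0.954.

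Cycs, cytochrome c, the mobile carrier between complexes III and IV that also triggers apoptosis when released, was at 268, 185 and 185 CPM in sgNeo against 652, 307 and 265 CPM in sgLkb1. The lowest sgLkb1 library lay just under the highest sgNeo library, and the replicate 1 libraries were the highest of each group. The log2FC was 0.94 (SE 0.35, edgeR adjusted p = 0.109). Cycs passed with DESeq2 (adjusted p = 0.0219) and with no filter on low counts (edgeR adjusted p = 0.00239), and did not pass with limma-voom (adjusted p = 0.126). It fitted at 0.44 once sgLkb1 replicate 1 was removed (edgeR adjusted p = 0.176).

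Complex V, the ATP synthase, held 0 calls among 17 tested genes by edgeR, 2 by DESeq2 and 0 by limma-voom, with 4 higher and 0 lower at an unadjusted p under 0.05, and its median log2FC was 0.153. The catalytic head genes Atp5a1 (alpha) and Atp5b (beta) had values near 0: Atp5b was at 1019 ± 65.0 CPM in sgNeo against 1087 ± 103 CPM in sgLkb1 (log2FC 0.09, SE 0.17, edgeR adjusted p = 0.755), and Atp5a1 at 671 ± 46.1 and 656 ± 32.3 CPM (-0.03, SE 0.16, edgeR adjusted p = 0.914). Atp5pb, of the peripheral stalk, was at 395 ± 46.9 and 373 ± 111 CPM. Atp5c1, the central stalk gamma subunit, was at 192, 184 and 173 CPM and 332, 256 and 199 CPM, and its groups did not overlap (log2FC 0.52, SE 0.20, edgeR adjusted p = 0.127).

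The greatest log2FC values of the complex were those of small membrane-part subunits, Atp5md (0.96, SE 0.38, edgeR adjusted p = 0.126) and Atp5l (0.82, SE 0.31, edgeR adjusted p = 0.118). Atp5md was at 87.2, 72.9 and 56.9 CPM in sgNeo against 227, 122 and 74.0 CPM in sgLkb1, with the lowest sgLkb1 library inside the sgNeo range. With 1 library left out the log2FC ranged from 0.435 to 1.264 for Atp5md and from 0.388 to 1.061 for Atp5l. Of the 3 genes for the proton-carrying c subunit, which encode the same mature protein, Atp5g3 had a log2FC of 0.68 (SE 0.28, edgeR adjusted p = 0.144), Atp5g1 0.08 (SE 0.15, 0.784) and Atp5g2 -0.12 (SE 0.21, 0.740). Atp5g3 was at 182, 164 and 152 CPM in sgNeo against 389, 234 and 175 CPM in sgLkb1, and its log2FC ranged from 0.304 to 0.899 with 1 library left out. A second entry for Atp5o had 0 counts in all 6 libraries and was not tested.

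Per kilobase of exon, the levels of the 94 tested members in sgNeo ran from 0.379 for Ndufa4l2 and 0.595 for Cox4i2 to 336 for Cox8a, 318 for Uqcrb, 246 for Uqcr11 and 241 for Atp5b, in CPM per kilobase. Lengths were those of all annotated exons joined, which lowers the value of genes with long alternative exons such as Atp5g1. Cox6a2 stood at 81.4 CPM per kilobase in sgNeo, within the range of the common complex IV forms Cox7a2 (76.1) and Cox4i1 (135), and at 3.62 in sgLkb1.

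Among 86 members with a mean log2 CPM above 3, those with high log2FC values tended to be low in GC content. Cox5a (41.6% GC in its longest transcript), Ndufs4 (43.1%), Cycs (40.8%), Atp5l (39.8%), Atp5md (42.2%) and Uqcrb (40.4%) were all in the lowest tertile of these members by GC content, below 48.2%. Atp5g3 (log2FC 0.68) was above that bound at 49.3%, and Ndufa4l2, the member with the highest log2FC, has 60.7% GC but a level too low to be among the 86. That tertile had a median log2FC of 0.317, the middle tertile 0.184 and the highest tertile -0.005, beside 0.162, -0.042 and -0.162 for all genes in the same ranges. Across the 86 members, Spearman's rho between log2FC and GC content was -0.48, and across 9432 genes of that level it was -0.28; genes share the same libraries, so this is a description.

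The spread among replicates followed GC content as well. Within sgLkb1, the deviation of a member from its group mean had a rho with GC content of -0.56 in replicate 1, 0.33 in replicate 2 and 0.59 in replicate 3, and within sgNeo of -0.39, -0.30 and 0.49. Replicate 1 of sgLkb1 was the highest of the 6 libraries in 39 of 94 members (41.5%), beside 24.4% of all genes. When a smooth trend with GC content was removed from each library, an alternative chosen after seeing the data, Cox5a and Ndufs4 still passed, with log2FC values of 0.83 and 0.80 (edgeR adjusted p = 0.0122 and 0.0184). Cox6a2 (52.8% GC) then stood at -4.38 (edgeR adjusted p = 0.00102), and Cox6b2 no longer passed (-2.18, edgeR adjusted p = 0.0607). A further 7 members rose under that setting: Sdhd, Sdhb, Ndufa11, Cox4i1, Cox6b1, Atp5l and Cox6a1. Calls over all 15978 genes were 3102 in that fit, beside 2501 without the correction.

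**Figure D3:**
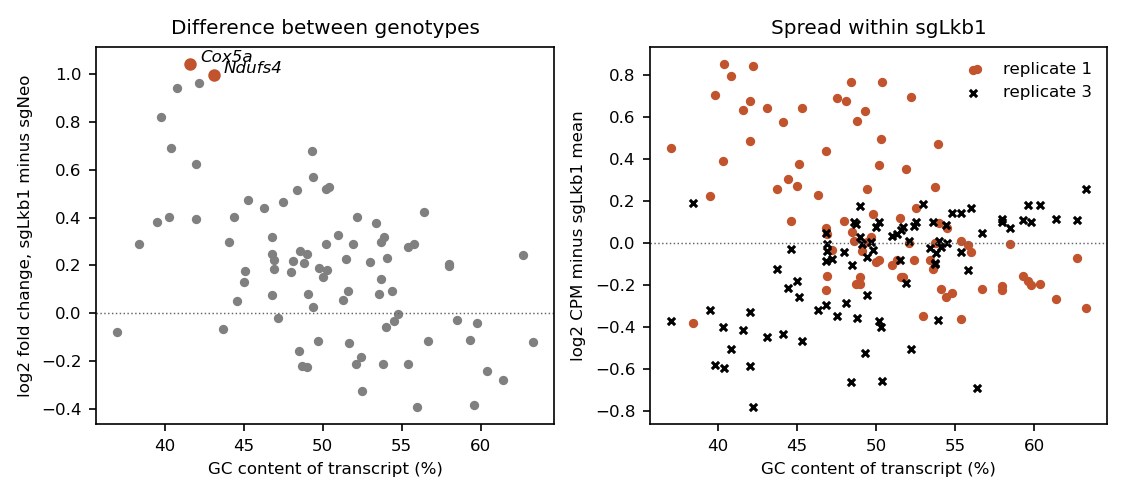
Left, log2 fold change (sgLkb1 minus sgNeo) against the GC content of the longest transcript for 85 members with a mean of more than 8 CPM (Cox6a2, at -4.49, is off this scale and left out), with Cox5a and Ndufs4 in orange. Right, log2 CPM of the same genes in sgLkb1 replicates 1 (orange) and 3 (crosses) minus the mean of the 3 sgLkb1 libraries: members low in GC content are high in replicate 1 (rho -0.56 over 86 members) and low in replicate 3 (rho 0.59).

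The 13 protein genes encoded by mitochondrial DNA, which supply the partner subunits of complexes I, III, IV and V, had negative log2FC values in 13 of 13 cases, with a median of -0.998, while the nuclear-encoded members had a median of 0.186. Only mt-Nd2, a complex I subunit, passed, at 3914, 2294 and 1399 CPM in sgNeo against 1207, 986 and 750 CPM in sgLkb1 (log2FC -1.37, SE 0.37, edgeR adjusted p = 0.0413). Each of its sgLkb1 libraries was below every sgNeo library, and the call was lost without sgNeo replicate 1 or 2 or sgLkb1 replicate 2 or 3 (edgeR adjusted p = 0.116, 0.102, 0.106 and 0.100), with a log2FC of -0.92 without sgNeo replicate 1. Counts past the threshold were 6 of 13 with DESeq2 and 2 of 13 with limma-voom. Summed, the 13 genes were at 88930, 55440 and 28790 CPM in sgNeo against 48310, 32770 and 21310 CPM in sgLkb1. The groups overlapped widely, and within each group the libraries differed by more than 2-fold, so the sum did not separate the genotypes. By the ratio of mean CPM, all 13 genes were lower in sgLkb1 whichever library was left out, with a median log2 ratio of -0.50 without sgNeo replicate 1 and -1.31 without sgNeo replicate 3. The 13 genes share the same libraries and are not separate observations, so this count is a description. mt-Co1, the catalytic core of complex IV, was at 12017 ± 6465 and 8657 ± 4747 CPM (log2FC -0.47, SE 0.50, edgeR adjusted p = 0.575).

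**Figure D4:**
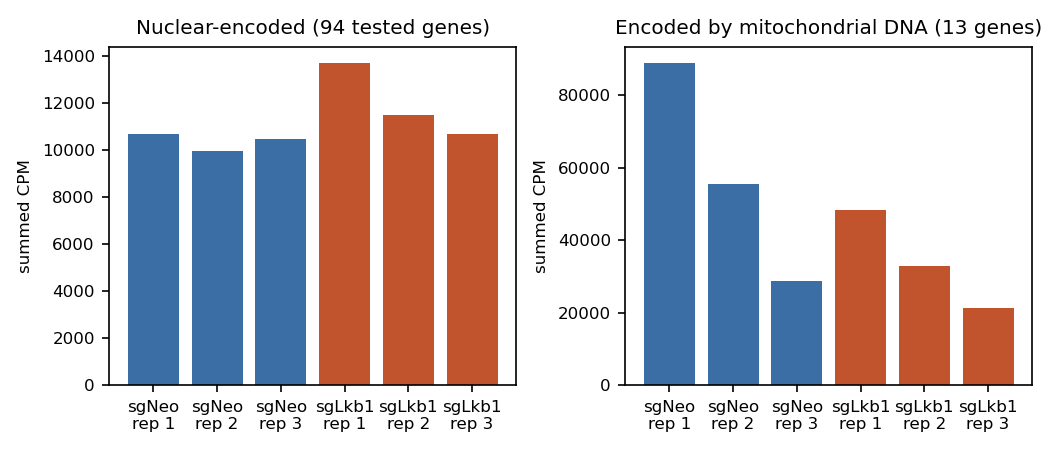
Summed CPM in each of the 6 libraries (sgNeo blue, sgLkb1 orange) of the 94 tested nuclear-encoded members, left, and of the 13 protein genes of mitochondrial DNA, right. The nuclear sums run from 9958 to 13700 CPM and are highest in sgLkb1 replicate 1, and the mitochondrial sums run from 21310 to 88930 CPM and overlap between the genotypes.

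Few other genes of mitochondrial function passed. Of 43 tested assembly factors of the respiratory complexes outside the naming rule, 2 rose and 0 fell (median log2FC 0.064). Of all tested genes, 7.05% rose and 8.6% fell. Hccs, the enzyme that attaches haem to cytochrome c, was at 22.8, 22.9 and 22.4 CPM in sgNeo against 34.8, 35.3 and 34.2 CPM in sgLkb1 (log2FC 0.62, SE 0.14, edgeR adjusted p = 0.0223). Sdhaf1, which helps to insert iron-sulphur clusters into Sdhb, was at 13.5, 11.6 and 13.5 CPM and 20.1, 28.0 and 22.1 CPM (0.86, SE 0.20, edgeR adjusted p = 0.0215). For both genes the groups did not overlap, and for both the call was lost without any one sgNeo library or without sgLkb1 replicate 2 (edgeR adjusted p of 0.0620 to 0.103). With the GC trend removed Hccs no longer passed (0.47, edgeR adjusted p = 0.133).

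Among 78 genes of the mitochondrial ribosome, which translates the mtDNA-encoded subunits, 5 rose and 0 fell (median 0.107). Of all tested genes, 7.05% rose and 8.6% fell, and these shares also stand beside the coenzyme Q and mitophagy counts that follow. Mrps6, of the small subunit, was at 21.6, 18.2 and 17.8 CPM in sgNeo against 67.1, 86.6 and 58.2 CPM in sgLkb1 (log2FC 1.88, SE 0.19, edgeR adjusted p = 0.000959), with no overlap and a call in all 6 fits without 1 library. The other 4 were Mrps22, Mrpl3, Mrpl15 and Mrpl20, with log2FC values from 0.59 to 0.93. Without any one sgNeo library the count in this list was 1, and without sgLkb1 replicate 2 it was 2. In coenzyme Q synthesis and function 1 of 13 rose, Coq10b, a coenzyme Q binding protein (1.03, SE 0.28, edgeR adjusted p = 0.0436), and its sgLkb1 replicate 1 level of 206 CPM was well above the other 2 (114 and 93.9 CPM). Its log2FC was 0.63 without that library (edgeR adjusted p = 0.0223), and the call did not hold without any one sgNeo library or without sgLkb1 replicate 2 (edgeR adjusted p from 0.0536 to 0.141). In mitophagy 1 of 11 fell, Fis1, a fission factor of the outer membrane (-0.52, SE 0.15, edgeR adjusted p = 0.0455), a call lost in all 6 fits with a library left out.

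No gene passed by edgeR among 19 of the tricarboxylic acid cycle (median 0.071; 4 higher and 4 lower at an unadjusted p under 0.05; 4 with DESeq2), 15 regulators of mitochondrial biogenesis (median 0.080; 0 higher and 2 lower; 0 with DESeq2), 10 of the cristae organising MICOS complex (0.074; 0 higher and 1 lower; 0 with DESeq2) or 22 of protein import (0.174; 5 higher and 0 lower; 4 with DESeq2). With limma-voom the count was 0 in each of these lists. Ppargc1a, the coactivator of respiratory gene transcription, was at 10.3, 9.52 and 11.6 CPM in sgNeo against 9.03, 6.22 and 7.29 CPM in sgLkb1. Each of its sgLkb1 libraries was below every sgNeo library, but the log2FC of -0.48 (SE 0.24, edgeR adjusted p = 0.229) did not pass.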

How the data were processed

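Bulk RNA was sequenced from sorted lung tumour cells, 3 libraries per genotype. The authors deposited RSEM expected counts per gene, with GRCm38 as the build and STAR, RSEM, FastQC and DESeq2 as tools, per the submitters' processing notes. The sources used here do not give the strand setting or the annotation release, so reads of overlapping genes on opposite strands cannot be told apart (35 members have an exon overlap). RSEM divides reads between similar genes, and 40 members had counts that were not whole.

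Counts were rounded, filtered with filterByExpr, scaled by TMM and tested with edgeR 4.0.16 (R 4.3.3; glmQLFit and glmQLFTest, two-sided, genotype as the only term), with Benjamini-Hochberg adjustment over 15978 genes at 0.05. Log2 fold changes are sgLkb1 minus sgNeo. The SE was obtained as the size of the log2 fold change over the root of the F statistic. CPM uses the scaled library sizes. Positions, lengths and GC content came from GENCODE vM21, which matched 97.9% of gene IDs, and promoters from RefSeq.

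The members and lists were chosen with earlier results of these data known. Genes named are Stk11, members past the threshold, the 8 highest and 8 lowest log2 fold changes, complex I core, restricted isoforms, the c ring, abundant members and called genes of each list (the 4 of lowest p where more pass); others are examples chosen with their values in view. The rule also names 1 member that is not reported here. The muscle, fibroblast, endothelial, leukocyte, ciliated and erythroid lists hold genes used as markers of other cells. Which cells their RNA came from here was not tested. Alternatives were RLE and upper-quartile scaling, removal of the 10 most abundant genes, no filter, a minimum of 1 CPM in 3 libraries, limma-voom (limma 3.58.1), DESeq2 1.42.0, a blocking term for replicate number, robust dispersion, and omission of each library. On data simulated for this comparison over 15978 genes, the test recovered 24% of genes changed 2-fold and 98% changed 4-fold.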

Additional observations from a re-analysis of the deposited data

How the results depend on the processing

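With 3 libraries per genotype changes of 2-fold or less can be missed. In simulation 4% of genes changed 1.5-fold, 24% changed 2-fold and 98% changed 4-fold were recovered. There 50 genes were changed at each fold and 15778 were left unchanged, while the data gave 2501 calls. An adjusted p under 0.05 is harder to reach when fewer genes change. The percentages may therefore be too low for these data and do not measure the sensitivity of the real comparison. At 3 counts a library holds 0.0734 to 0.121 CPM, which bears on Ndufa4l2, Cox4i2 and Cox6b2. Whether equal replicate numbers pair the libraries cannot be told from these values. Same-numbered libraries had correlations of 0.13, -0.02 and 0.11 in their deviations from the group means. Numbers 1 and 3 correlated best with their own number, and number 2 with another number. The summed level of the mtDNA-encoded genes fell from replicate 1 to replicate 3 in both groups. With the replicate block 5 members rose, with 2 calls in complex V, 1 for cytochrome c (adjusted p = 0.0222), 2 in the tricarboxylic acid cycle, 3 in import, 2 fibroblast, 5 leukocyte and 7 mtDNA-encoded.

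Counts that moved by more than 1.5 times are given by setting. Over all genes, calls were 2501, and 3440 with no filter, 3559 with DESeq2, 2279 with limma-voom, 2880 with the block and 3102 with the GC trend removed. No filter gave 9 members higher, 1 call in complex II, 1 in III, 3 in V, 1 for cytochrome c, 1 in the tricarboxylic acid cycle, 2 in coenzyme Q, 3 in import, 0 in mitophagy, 8 mtDNA-encoded, 1 ciliated, 5 endothelial, 8 fibroblast, 6 leukocyte and 2 muscle. DESeq2 gave 7 members higher, 2 calls in complex II, 2 in V, 1 for cytochrome c, 4 in the tricarboxylic acid cycle, 3 in coenzyme Q, 4 in import, 6 mtDNA-encoded, 1 ciliated, 6 leukocyte and 2 muscle. Limma-voom gave 1 member higher, 0 in complex I, 0 in coenzyme Q, 1 fibroblast and 2 mtDNA-encoded. With the GC trend removed (chosen after seeing the data) there were 9 members higher, 1 lower, 2 calls in complex I, 2 in II, 5 in IV, 1 in V, 1 assembly factor, 4 in the tricarboxylic acid cycle, 3 in import, 1 biogenesis regulator, 4 leukocyte and 7 mtDNA-encoded. RLE scaling and removal of the 10 most abundant genes left 1 member lower, and RLE and upper-quartile scaling called 1 in complex II. These 3 settings gave 1 in import and 0 in mitophagy, and CPM of at least 1 gave 1 in import.

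With each library left out, calls ranged from 1129 (without sgNeo replicate 2) to 2780 over all genes, from 0 to 5 for members higher and from 1 to 1 for members lower. They ranged from 0 to 1 in complex I and in complex II, from 1 to 2 in complex IV and from 0 to 2 in complex V. The lists ranged from 0 to 1 (tricarboxylic acid cycle and biogenesis), 0 to 2 (assembly and coenzyme Q), 0 to 3 (import), 0 to 0 (mitophagy), 1 to 6 (ribosome), 0 to 4 (mtDNA-encoded), 1 to 4 (endothelial), 0 to 6 (fibroblast), 1 to 3 (leukocyte) and 1 to 2 (muscle). The members' median log2 fold change ranged from 0.093 (without sgLkb1 replicate 1) to 0.199. The cause of these moves was not tested. The members' median stayed positive under every setting run.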
